A study of Mus musculus with 11 samples.

Results

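The genes of the 3-beta-hydroxysteroid dehydrogenase family known as Hsd3b2, Hsd3b3, Hsd3b1, Hsd3b4 and Hsd3b6 were followed in mouse liver through every probe set that the platform annotation assigns to at least 1 of them. These were 5 of 22690 probe sets on the array, for 5 of 13319 annotated gene symbols. The family was chosen by the Hsd3b3 signal, which had been seen to be higher in wild-type livers after the high-fat than after the normal diet, so its members' values in that comparison are a description and carry no test. Liver RNA was measured on one oligonucleotide array per male mouse of a mixed genetic background. The Akt1 double transgenic group on the high-fat diet held 4 mice, the wild-type group on the high-fat diet held 4, and the wild-type group on the normal diet held 3. Doxycycline, which turns on transgenes of the inducible kind, was given to all 11 mice over 3 weeks. Muscle hypertrophy is recorded for the transgenic group and for neither wild-type group. The promoter that drives the Akt1 transgene and the age of the mice are not given in the sources used here. No transgenic mice on the normal diet were analysed here, so the transgene was compared within the high-fat diet.

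Enzymes of this family sit in the endoplasmic reticulum and mitochondria and act on the hydroxyl group at the third carbon of the steroid nucleus. In the mouse some members are dehydrogenases and isomerases that turn pregnenolone and dehydroepiandrosterone into progesterone and androstenedione, and others work mainly as ketosteroid reductases that inactivate steroids. Adrenal gland and gonads use the family to make hormones, while liver and kidney carry further members that take part in steroid breakdown. Hsd3b5, a male-predominant liver reductase, and Hsd3b7, an enzyme of bile acid synthesis, are paralogs that stood outside the 5 members and were measured beside them.

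Of the 5 probe sets, 3 carried 1 gene symbol and 2 carried several. Hsd3b2, Hsd3b3 and Hsd3b1 each had 1 probe set of their own. Hsd3b6, known from placenta, skin and the adrenal cortex, was represented by the probe set that it shares with Hsd3b3 and Hsd3b2 alone. Hsd3b4, a reductase known from kidney, was represented by a probe set shared with Gm10681 and Gm4450, neighbours in the same cluster. The suffix of the Hsd3b3 probe set marks probes that can also bind related transcripts, so even its signal can hold RNA of paralogs. In the RefSeq gene table (GRCm38.p6) Gm4450, Hsd3b4, Gm10681, Hsd3b5, Hsd3b2, Hsd3b3, Hsd3b6 and Hsd3b1 follow each other in this order along chromosome 3, and Hsd3b7 lies on chromosome 7.

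The 250 bases before the annotated starts of Hsd3b3, Hsd3b5 and Hsd3b2 are shown because Hsd3b2 resembled Hsd3b5 more than Hsd3b3 across the mice. The sequences are from RefSeq (GRCm38.p6), 5′ to 3′ on the minus strand of chromosome 3, for Hsd3b3 at chr3:98763129-98763378, for Hsd3b5 at chr3:98645535-98645784 and for Hsd3b2 at chr3:98724544-98724793. Capitals mark the bases of Hsd3b3 and Hsd3b5 that are identical in the best local alignment of these windows, and Hsd3b2 is in lower case throughout.
Hsd3b3: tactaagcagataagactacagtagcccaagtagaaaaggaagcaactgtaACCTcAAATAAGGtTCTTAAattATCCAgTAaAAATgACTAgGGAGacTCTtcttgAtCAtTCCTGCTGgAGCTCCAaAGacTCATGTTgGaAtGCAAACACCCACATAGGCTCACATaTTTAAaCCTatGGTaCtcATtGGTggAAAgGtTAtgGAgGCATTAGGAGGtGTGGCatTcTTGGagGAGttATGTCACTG
Hsd3b5: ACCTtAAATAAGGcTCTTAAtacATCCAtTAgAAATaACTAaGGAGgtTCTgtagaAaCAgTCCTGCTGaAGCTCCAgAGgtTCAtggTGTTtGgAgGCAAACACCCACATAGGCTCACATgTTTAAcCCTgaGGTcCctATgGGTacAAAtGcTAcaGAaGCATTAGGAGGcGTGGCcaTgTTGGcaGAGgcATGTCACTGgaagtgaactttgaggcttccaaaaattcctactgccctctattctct
Hsd3b2: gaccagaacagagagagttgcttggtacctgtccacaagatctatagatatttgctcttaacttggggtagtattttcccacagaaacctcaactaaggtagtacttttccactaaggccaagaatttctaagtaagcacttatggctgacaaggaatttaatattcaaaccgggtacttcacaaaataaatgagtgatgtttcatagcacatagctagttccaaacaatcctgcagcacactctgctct
The Hsd3b3 and Hsd3b5 windows were identical at 151 of 202 aligned positions (74.8%). The best local alignment of Hsd3b2 with Hsd3b3 spanned 38 positions, 28 of them identical, and that of Hsd3b2 with Hsd3b5 spanned 31, with 23 identical. Windows of 2 starts were available for Hsd3b3, the printed one and another at chr3:98762411-98762660, which do not overlap. They were identical at 248 of 249 aligned positions. Both lie inside the annotated span of Hsd3b3, whose 5′ end is at chr3:98764540. The bases before that end were not examined. The STAT motif TTCNNNGAA, searched on both strands, was in the windows of Hsd3b1 and Hsd3b7, in none of the 3 printed windows and in 7.02% of 32851 such windows in the table. The letters AGATAA of the GATA motif, on either strand, were in the windows of Hsd3b6 and Hsd3b1, in both of Hsd3b3 and in 1 of the 2 listed for Hsd3b4, not in those of Hsd3b2 and Hsd3b5, and in 9.99% of all windows. The nuclear receptor half-site AAGGTCA (4.08% of all windows), the TATA box TATAAA (12.4%) and the forkhead motif TGTTTAC (3.17%) were in no window of the members or of Hsd3b5. These counts describe letters in a window and not sites in use.

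Each array gave a linear signal per probe set, scaled by the authors to a common trimmed mean, and differences are on the log2 scale with signals under 1 set to 1. Median signals were 97.2 to 118 per array. The trimmed mean was 500.25 to 500.28 on each array. Transgenic arrays 3 and 4 had the highest top signals, 42425.5 and 43272.9, against 27779.5 to 35450.1 on the other 9 arrays. On transgenic array 3 the poly-A spikes averaged 113, against 277 to 468 on the others, and the Gapdh 3′/5′ ratio was 0.823, against 0.669 to 0.768. All 7 hepatocyte markers on the array exceeded the limit for dim probe sets, a mean signal of about 53.0. Their summed signal was 147570 to 205580 in transgenic mice, 143780 to 154070 in wild-type high-fat mice and 124320 to 143750 on the normal diet. All 7 were higher on transgenic arrays 3 and 4 than on transgenic arrays 1 and 2. Alb, for one, had 30531.8 and 31650.6 on arrays 3 and 4, against 22086.8 and 21781.5 on arrays 1 and 2. Precision is limited by how many arrays there were, and limma's p-values set a group difference against the spread between mice of the same group.

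Hsd3b3, a dehydrogenase known from liver and kidney, had its highest signals in the wild-type high-fat group. Its signals were 3671.1, 4475.1, 2979.2 and 3179.8 in transgenic mice, 5181.1, 6648.9, 5639.0 and 5245.8 in wild-type high-fat mice, and 2317.4, 3717.8 and 2030.8 in normal-diet mice. Every wild-type high-fat array lay above every array of both other groups, whereas transgenic and normal-diet arrays overlapped. On the high-fat diet the mean was 5680 ± 678 (SD, n = 4) in wild-type mice against 2690 ± 903 (SD, n = 3) on the normal diet, a log2 difference of 1.12 ± 0.20 (SE) or 2.18-fold. This is the comparison that chose the family. Arrays did not overlap, with the high-fat diet higher, for 4.37% of the 13575 probe sets tested. In bulk liver, fewer cells of a type and less RNA per cell cannot be told apart.

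Transgenic mice had a mean Hsd3b3 signal of 3580 ± 666 against 5680 ± 678 in wild-type mice on the same diet (SD, n = 4 each), a log2 difference of -0.68 ± 0.18 (SE), 1.60-fold lower. All 16 pairs of a transgenic and a wild-type mouse ran the same way. No test is given, since the wild-type high-fat arrays are those in which Hsd3b3 was picked for its high signal. For 3.78% of all probe sets tested the transgenic arrays lay below the wild-type arrays without overlap, and nothing is read from Hsd3b3 being among them. Against the normal diet, the transgenic mice differed by 0.44 ± 0.20 (log2, SE), and the transgenic mouse was higher in 9 of 12 pairs. The normal-diet arrays also served the comparison that chose the family, so here too no test is given. Without normal-diet array 2 the difference was 0.70. The order of the group means was wild-type high-fat, transgenic high-fat, normal diet, and single mice of the last 2 groups overlapped.

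**Figure D1:**
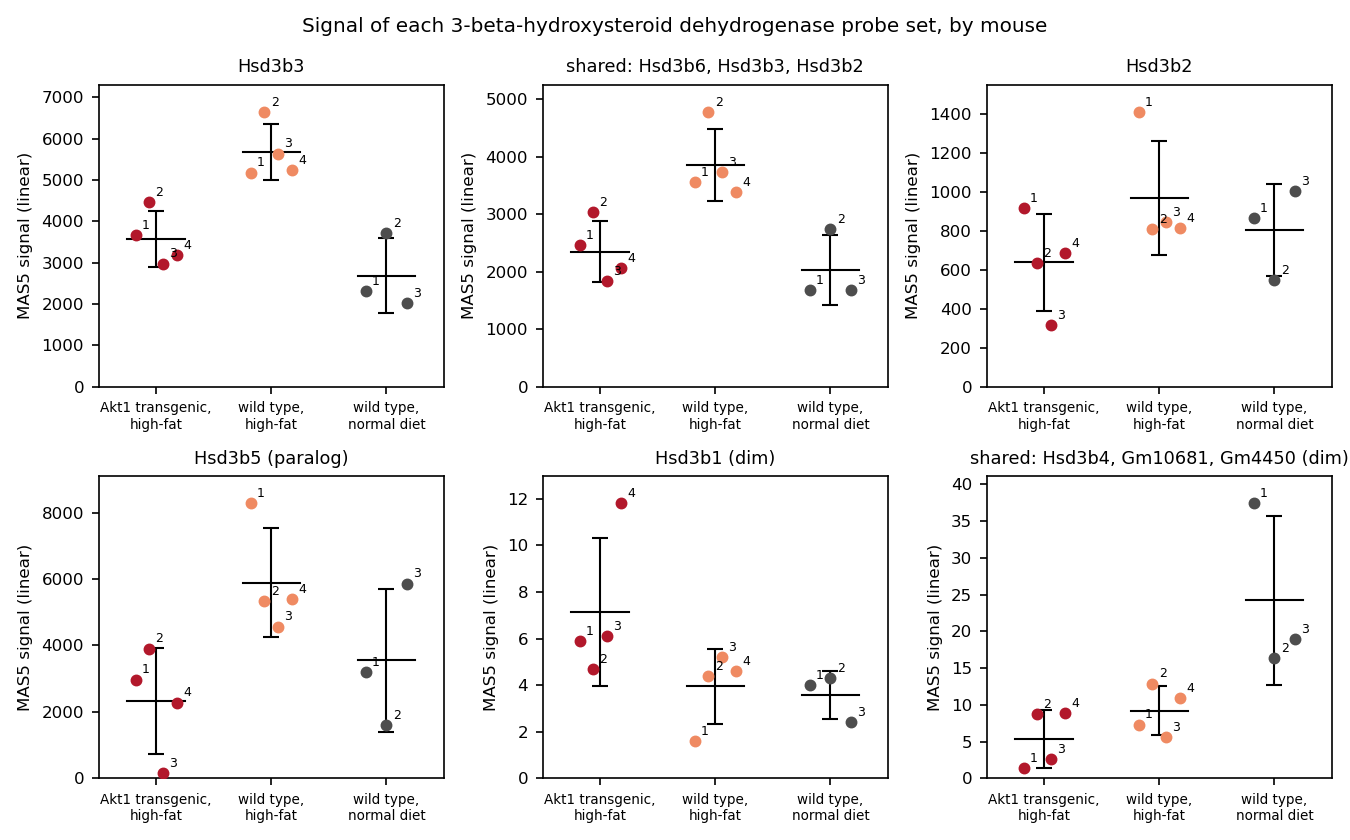
MAS5 signal (linear axis from 0) of the 5 member probe sets and of the paralog Hsd3b5, with Akt1 transgenic high-fat mice on the left, wild-type high-fat mice in the middle and wild-type normal-diet mice on the right. Points are single mice with their replicate number, and bars are the mean ± SD. The 4 wild-type high-fat mice sit between 5181.1 and 6648.9 for Hsd3b3, above all others, while Hsd3b1 and the Hsd3b4 probe set reach at most 11.8 and 37.4.

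The probe set shared by Hsd3b6, Hsd3b3 and Hsd3b2 followed that of Hsd3b3 mouse by mouse. Its signals were 2456.3, 3039.7, 1841.9 and 2059.0 in transgenic mice, 3563.1, 4776.2, 3724.8 and 3381.1 in wild-type high-fat mice, and 1686.4, 2738.9 and 1681.6 on the normal diet. Again every wild-type high-fat array was above all other arrays. The log2 difference was -0.73 ± 0.19 (SE) for transgenic against wild-type mice on the high-fat diet and 0.95 ± 0.21 for the high-fat against the normal diet in wild-type mice. Transgenic mice against the normal diet gave 0.22 ± 0.21. Because this probe set lists Hsd3b3, it was described without a test as well. Pearson's r between the log2 signals of both probe sets was 0.98 over the 11 arrays and 0.97 after the group means were taken out. Both can bind Hsd3b3 RNA, so this is a description of overlapping measurements. The share of Hsd3b6 in the signal was not tested.

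Hsd3b2, a dehydrogenase known from kidney and liver, had its highest mean in the wild-type high-fat group, as Hsd3b3 did, but its groups overlapped and its diet difference was smaller in size. Whether both genes differ in their response was not tested. Its signals were 916.5, 634.7, 316.9 and 686.6 in transgenic mice, 1410.9, 809.3, 846.5 and 813.8 in wild-type high-fat mice, and 864.6, 546.9 and 1003.7 on the normal diet. The 3 groups overlapped, and the lowest value belonged to transgenic array 3. Means were 639 ± 247 in transgenic and 970 ± 294 in wild-type high-fat mice (SD, n = 4 each) and 805 ± 234 on the normal diet (SD, n = 3). The diet difference in wild-type mice, described without a test, was 0.27 ± 0.33 (log2, SE), and the high-fat mouse was higher in 6 of 12 pairs. It was 0.02 without normal-diet array 2 and 0.08 without wild-type high-fat array 1, which had the highest Hsd3b2 signal.

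Among the probe sets bright enough for the filtered fit, that of Hsd3b2 was the only member probe set tested for the transgene. Transgenic mice differed from wild-type high-fat mice by -0.66 ± 0.31 (log2, SE), with a 95% interval of -1.32 to 0.01 and a limma adjusted p of 0.365 over all probe sets. The transgenic mouse was higher in 3 of 16 pairs. An exact two-sided permutation test over these 8 arrays gave p = 0.114, where 0.0286 is the smallest it can give. So 0 of 1 members tested passed, against 0.42% of all 13575 probe sets. Without transgenic array 3 the difference was -0.35 (limma adjusted p = 0.613), and without wild-type high-fat array 1 it was -0.46 (0.627). Transgenic against normal-diet mice gave -0.39 ± 0.33 with an interval of -1.11 to 0.33 (limma adjusted p = 0.585, 0 of 1 passed against 1.86% of all probe sets), in a comparison that shares its normal-diet arrays with the diet comparison. Without transgenic array 3 that difference was -0.08.

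**Figure D2:**
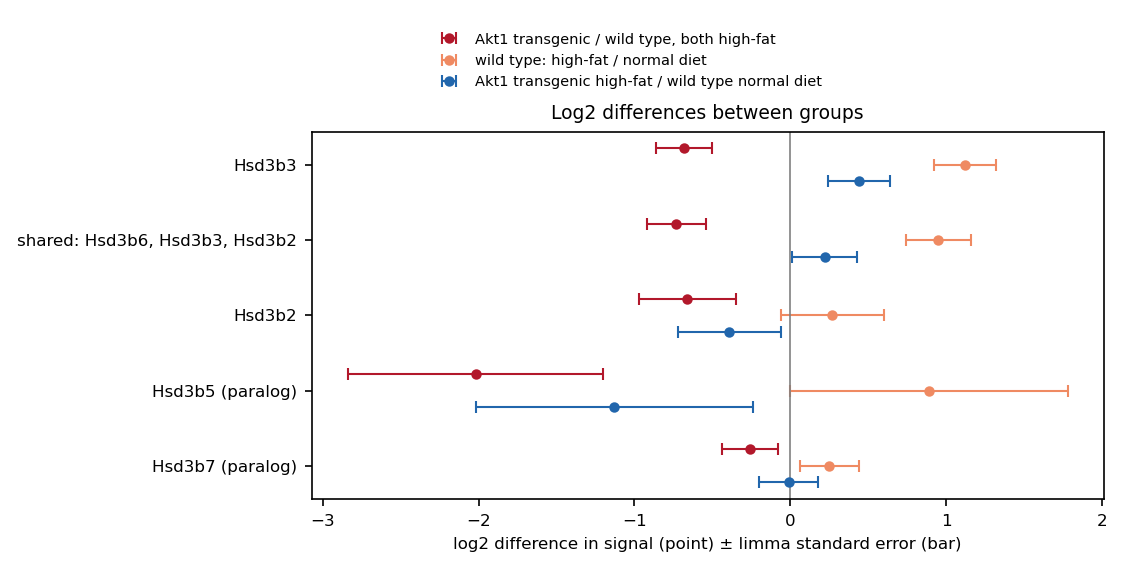
Log2 difference in signal (points) with limma's standard error (bars) for the 3 brighter member probe sets and the paralogs Hsd3b5 and Hsd3b7, with the comparison of transgenic and wild-type high-fat mice uppermost in each row. Hsd3b3 and its shared probe set lie at -0.68 and -0.73 in that comparison and at 1.12 and 0.95 for diet, while Hsd3b2 lies at -0.66 and 0.27.

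Hsd3b1, which makes progesterone and androstenedione in adrenal gland and gonads, was close to the lowest signals of the array. Signals were 4.7 to 11.8 in transgenic mice, 1.6 to 5.2 in wild-type high-fat mice and 2.4 to 4.3 on the normal diet, and the mean lay at percentile 4.3 of all probe sets. The Hsd3b4 probe set was at 1.4 to 8.9 in transgenic mice, 5.6 to 12.9 in wild-type high-fat mice and 16.4 to 37.4 on the normal diet, at percentile 12.3. Every normal-diet array was above every high-fat array at the Hsd3b4 probe set, all under the limit of about 53.0, so no fold change is given. With no filter, 4.64% of 22626 probe sets had every transgenic array below every normal-diet array, and 3.20% had every wild-type high-fat array below every normal-diet array. Neither probe set passed the filter on dim probe sets, which 3 of the 5 member probe sets did. When no filter was used, neither passed for transgenic against wild-type high-fat mice (limma adjusted p = 0.661 for Hsd3b1 and 0.628 for the Hsd3b4 probe set). In that fit 32 of 22626 probe sets passed. Without a filter neither passed for transgenic against normal-diet mice (limma adjusted p = 0.608 and 0.175), where 1.86% of all probe sets passed in the filtered fit.

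Most markers of tissues known for other members were low as well. Of 7 markers of adrenal or gonadal steroid-making cells on the array, 2 exceeded the limit for dim probe sets, Cyp17a1 and Cyp21a1, both hydroxylases of steroid synthesis. Cyp17a1 had 51.6 to 554.7 in transgenic mice, 112.1 to 532.7 in wild-type high-fat mice and 140.9 to 288.9 on the normal diet. For Cyp21a1 the signals were 14.8 to 90.6, 61.3 to 126.4 and 12.4 to 118.5 in the same order. The defining side-chain cleavage enzyme Cyp11a1 had 2.4 to 6.3 in transgenic mice, 1.8 to 11.8 in wild-type high-fat mice and 1.5 to 5.1 on the normal diet. The summed signal of the 7 markers overlapped between groups, at 185.9 to 675.5 in transgenic mice, 269.4 to 812.3 in wild-type high-fat mice and 213.3 to 492.8 on the normal diet. Of 8 kidney tubule markers 1, the glucose transporter Slc5a2, exceeded the limit. Slc5a2 had 102.3 to 119.7 in transgenic mice, 87.6 to 156.2 in wild-type high-fat mice and 137.3 to 189.7 on the normal diet. The 8 summed to 316.4 to 377.1 in transgenic mice, 242.4 to 343.0 in wild-type high-fat mice and 275.6 to 366.4 on the normal diet.

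Hsd3b5, the male-predominant liver paralog, had 2967.7, 3905.5, 151.3 and 2280.7 in transgenic mice, 8274.8, 5345.6, 4569.9 and 5389.0 in wild-type high-fat mice, and 3207.2, 1592.4 and 5858.6 on the normal diet. All transgenic arrays lay below all wild-type high-fat arrays, and transgenic array 3 was far under the rest. The log2 difference of these groups was -2.02 ± 0.82 (SE) and did not pass in limma's fit over all probe sets (adjusted p = 0.298). Without transgenic array 3, which stood apart in its control signals, it was -0.95 ± 0.36 (limma adjusted p = 0.343). Diet gave 0.89 ± 0.89 in wild-type mice (limma adjusted p = 0.906). Transgenic against normal-diet mice gave -1.13 ± 0.89 (limma adjusted p = 0.543), and without transgenic array 3 that difference was -0.06.

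Across mice Hsd3b2 lay closer to the pattern of Hsd3b5 than to that of Hsd3b3, without a test of the difference. Pearson's r of log2 signals over 11 arrays was 0.91 between Hsd3b2 and Hsd3b5, 0.86 after group means were taken out and 0.79 without transgenic array 3. Between Hsd3b2 and Hsd3b3 it was 0.18, -0.21 and 0.01 in the same order. Hsd3b5 and Hsd3b3 had r = 0.34 over all arrays and 0.10 within groups. These values are a description without a test, since the arrays share groups and scaling and the genes are related in sequence. Among these windows, those of Hsd3b3 and Hsd3b5 gave the longest local alignment between different genes. Shorter alignments of other pairs had a higher share of identical positions. Whether upstream sequence bears on the signals was not tested.

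**Figure D3:**
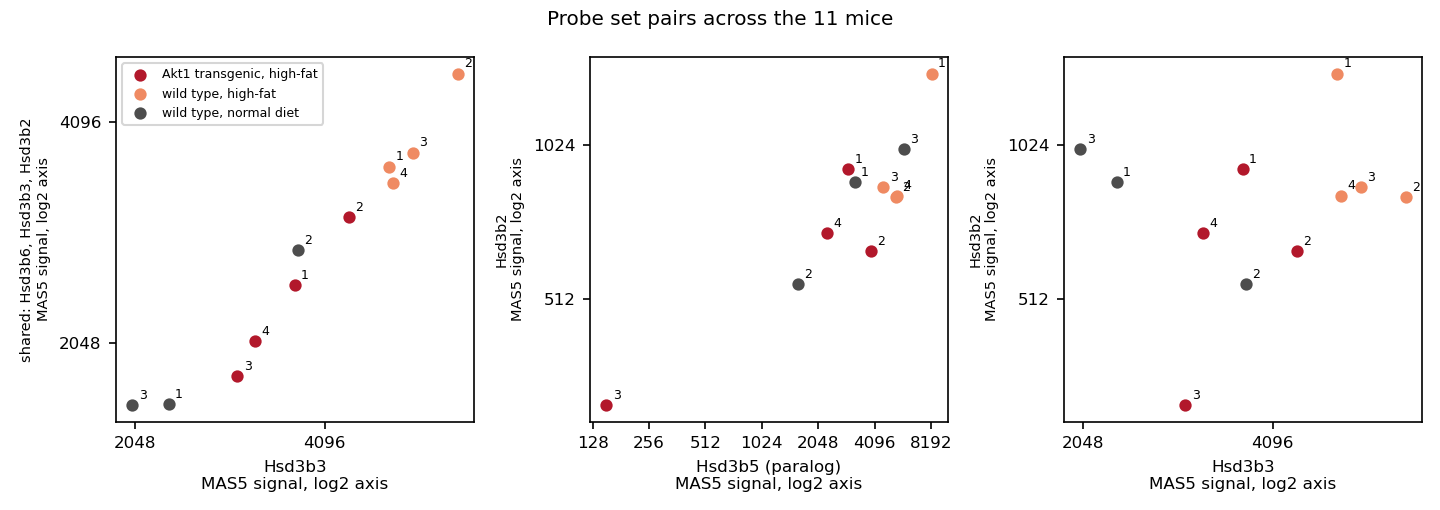
MAS5 signal on log2 axes for pairs of probe sets over 11 mice, coloured by group and numbered by replicate. Hsd3b3 and the shared probe set fall along a line (r = 0.98), Hsd3b5 and Hsd3b2 do so more loosely (r = 0.91) with transgenic array 3 at the lower left, and Hsd3b3 and Hsd3b2 form no line (r = 0.18).

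Hsd3b7, whose product acts on bile acid precursors, had 6903.5 to 9655.6 in transgenic mice, 6812.4 to 11745.6 in wild-type high-fat mice and 7225.2 to 9796.0 on the normal diet, and all 3 groups overlapped. The transgenic mice differed from wild-type high-fat mice by -0.26 ± 0.18 (log2, SE; limma adjusted p = 0.557), with a 95% interval of -0.64 to 0.13. For diet in wild-type mice the difference was 0.25 ± 0.19 (limma adjusted p = 0.856).

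The other genes of steroid metabolism were taken from a list of 43, of which 34 were on the array and 27 passed the filter. In limma's fit 0 of 27 rose and 0 fell in transgenic against wild-type high-fat mice, against 0.42% of all probe sets. An unadjusted p under 0.05 was found for 9 of 27, against 13.8% of all probe sets. The 27 hold only the brightest probe set of each gene, whereas the shares of all probe sets cover all 13575 tested, so these sets are unlike. Their log2 differences were below 0 for 18 and above 0 for 9, with a median of -0.226 beside 0.001 over 7924 genes. For diet 0 of 27 passed, with 1 at an unadjusted p under 0.05, against 0 of 13575 probe sets (0%), of which 965 (7.11%) had an unadjusted p under 0.05. There 21 differences were above 0 and 6 below, with a median of 0.115 beside 0.007. With transgenic mice set against normal-diet mice, 0 of 27 passed in limma, against 1.86% of all probe sets. There 5 of 27 had an unadjusted p under 0.05, near the 17.7% over all probe sets, and the median was -0.013 beside 0.004.

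Among reductases and enzymes of the steroid ring, 8 of 9 tested were below 0 in transgenic against wild-type high-fat mice, with a median log2 difference of -0.45. The 5 tested Akr1c genes, aldo-keto reductases related in sequence, lay between -0.63 and -0.15. Akr1c13, a hydroxysteroid dehydrogenase of this group, had the smallest p, at 1556.7 to 1969.1 in transgenic mice against 2178.7 to 2668.2 in wild-type high-fat mice. Its log2 difference was -0.45 ± 0.12 (SE, limma adjusted p = 0.120). Akr1c12 was at -0.45 ± 0.13 (limma adjusted p = 0.167). Transgenic arrays lay below wild-type high-fat arrays without overlap for 3 of the 27 genes, against 3.78% of all probe sets. They were Hsd3b5, Akr1c13 and, named after its values were seen, the oxysterol hydroxylase Cyp7b1. The log2 difference of Cyp7b1 was -0.80 ± 0.31 (SE, limma adjusted p = 0.279), and -0.46 without transgenic array 3.

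The list group of hydroxysteroid dehydrogenases of other families, which also held H6pd, had a median nearer to 0 in the same comparison. This median was 0.01 over 10 genes, with a range of -0.41 to 0.52. Hsd17b13, at 0.35, had an SE of 1.3. For diet the smallest p belonged to Fdx1, which encodes the ferredoxin that feeds electrons to mitochondrial steroid hydroxylases, at 0.48 ± 0.22 (log2, SE; limma adjusted p = 0.701), and to Hsd17b10, a mitochondrial dehydrogenase, at 0.64 ± 0.30 (limma adjusted p = 0.716). Against the normal diet, the transgenic mice had Akr1c13 at -0.53 ± 0.13 (limma adjusted p = 0.0604) and Akr1c14 at -0.73 ± 0.21 (limma adjusted p = 0.0979). For both, every transgenic array was below every normal-diet array, as was Hsd17b7, named after its values were seen, where 6.90% of all probe sets were lower without overlap.

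**Figure D4:**
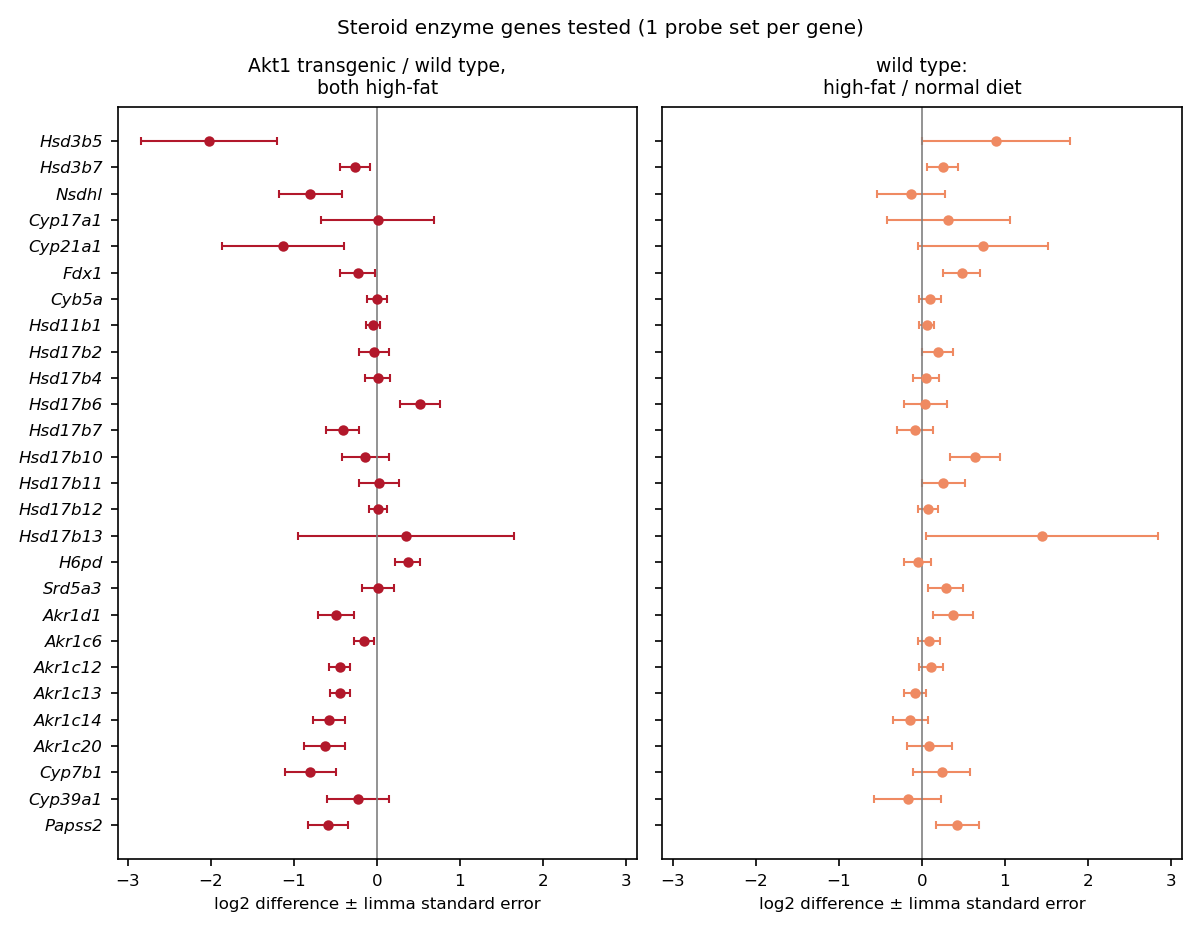
Log2 difference in signal (points) with limma's standard error (bars) for the 27 tested steroid enzyme genes, for transgenic against wild-type high-fat mice on the left and for high-fat against normal diet in wild-type mice on the right. On the left 18 of 27 points lie below 0, with Hsd3b5 lowest at -2.02, and on the right 21 of 27 lie above 0. None passed the test.

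The genes whose log2 signal was most like that of Hsd3b3 over the 11 arrays, among 7922 others, were Gtpbp8 (Pearson's r = 0.910), Ivd (0.896), Myl12b (0.879), Gatd3a (0.876) and Gnai2 (0.865). After group means were taken out, r was highest for Myl12b (0.873) and lowest for Gatd3a (0.510). Ivd, an enzyme of leucine breakdown, had 1315.9 to 1698.5 in transgenic mice, 1777.6 to 2299.9 in wild-type high-fat mice and 1252.8 to 1494.9 on the normal diet. Like Hsd3b3, its wild-type high-fat arrays were above all others. The lowest r belonged to Fbxo45 (-0.891) and Txnip (-0.883). Txnip, a glucose-responsive thioredoxin-binding protein, had 1419.5 to 3197.5 in transgenic mice, 960.9 to 1368.5 in wild-type high-fat mice and 2037.9 to 3952.8 on the normal diet, so its wild-type high-fat arrays were below all others. These genes are the extremes of many and are given with no test.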

How the data were processed

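The deposited intensity values are linear MAS5 signals, 1 per probe set and array, which the authors computed, as named without a version in the submitters' processing notes. MAS5 scales each array on its own. The deposited table had no detection calls here. Biotin-labelled cRNA was made from liver RNA with a poly-dT primer, per the labels' protocols.

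Groups came from the sample titles. Signals under 1 were set to 1 before log2. The 64 control probe sets and the lowest 40% by mean log2 signal (under about 53.0) were left out, and each remaining probe set was tested on its own. Limma 3.58.1 in R 4.3.3 (lmFit, eBayes with trend, two-sided, Benjamini-Hochberg adjusted p under 0.05) fitted all 11 arrays with a mean per group. The steroid list used the brightest probe set of 1 symbol per gene. Promoter windows were aligned locally with Biopython 1.88. The members, the lists and the rule for named genes were chosen with earlier results of these data known. That rule took all members, Hsd3b5 and Hsd3b7, list genes past the threshold or else the 2 of smallest p per comparison, and the genes most and least like Hsd3b3. The fit was tested on simulated data. Alternatives changed normalization, floor, filter, variance model, weights, arrays and replicate block.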

Additional observations from a re-analysis of the deposited data

Results flagged for a closer look

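Among the probe sets named, 38 groups of 4 arrays (19 probe sets) were searched for a mouse far from the others, and chance flags about 1 group in 20. Hsd3b2 in wild-type high-fat array 1 had a signal of 1410.9, against 809.3 to 846.5 in the other 3 mice of that group, a gap of 0.938 of the group's range, past Dixon's critical value. Hsd3b5 was also highest in that array, at 8274.8. Txnip in wild-type high-fat array 1 had 1368.5, against 960.9 to 1018.7 in the other 3, a gap of 0.858 of the range.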

How the results depend on the processing

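Hsd3b2 kept its direction and did not pass for transgenic against wild-type high-fat mice under all 22 alternative fits (log2 -0.87 to -0.30, limma adjusted p 0.214 to 0.758). Leaving out single arrays moved it between -0.87 and -0.35. Hsd3b3 kept its sign in each comparison, at -0.79 to -0.48 for the transgene and 0.94 to 1.38 for diet, where 1.38 was without normal-diet array 2. With transgenic set against normal-diet mice it was 0.27 to 0.70, with 0.70 without that same array.

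Probe sets past the threshold over the whole table numbered 57 for transgenic against wild-type high-fat mice. There were 32 without a filter, 29 with 1 probe set per gene, 0 without a trend (1878 had an unadjusted p under 0.05 in limma with the trend), 94 with array weights, 13 with only the groups compared, 5 without transgenic arrays 3 and 4, and 2 to 104 leaving out single arrays (2 without wild-type high-fat array 3 or transgenic array 4, and 104 without wild-type high-fat array 2). For diet there were 0, with 5 under array weights, 3 with the replicate block and 0 to 4 leaving out single arrays. For transgenic against normal-diet mice there were 253, with 165 for 1 probe set per gene, 100 without a trend, 159 with only the groups compared, 30 without transgenic arrays 3 and 4, and 58 to 285 leaving out single arrays (58 without transgenic array 4). The cause was not tested.

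Some signs turned, in each case for a difference that did not pass. Hsd3b5 against the normal diet was -1.13 ± 0.89 with all arrays, -0.06 without transgenic array 3 and 0.13 without transgenic arrays 3 and 4. Fdx1 was 0.12 for the transgene without arrays 3 and 4, against -0.23 with them. Against the normal diet Hsd3b7 was -0.01, with 0.01 under array weights and -0.10 to 0.12 leaving out single arrays. Leaving out single arrays gave -0.36 to 0.07 for Hsd17b10 and the transgene, and for diet -0.16 to 0.01 for Akr1c13, 0.00 to 0.20 for Akr1c12 and -0.05 to 0.42 for Cyp7b1. Against the normal diet, Akr1c13 passed in 1 of 22 alternative fits, with the lowest 60% left out (-0.53, limma adjusted p = 0.0497). Over these fits it lay between -0.61 and -0.37, with a limma adjusted p up to 0.261. Akr1c14 also passed in 1 of 22, without transgenic array 1 (-0.91, limma adjusted p = 0.0253). It was -0.52 without transgenic array 3 and lay between -0.91 and -0.37 over these fits, with a limma adjusted p up to 0.249.

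The labels do not say what a replicate number marks. Deviations of same-numbered arrays correlated at 0.0730 to 0.248 for transgenic and wild-type high-fat mice, where all 4 transgenic arrays correlated best with their own number. For wild-type high-fat and normal-diet mice r was -0.0466 to 0.0268, and 0 of 3 numbers matched best. For transgenic and normal-diet mice r was -0.0529 to 0.0996, and 1 of 3 matched best. With the replicate number as a block, Hsd3b2 was at -0.66 (limma adjusted p = 0.300), 52 probe sets passed for the transgene and 211 for transgenic against normal-diet mice. The files hold no detection calls, so signal over background was not judged.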

Other observations

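The mouse numbered 2 had the highest Hsd3b3 signal in each group, 4475.1 among transgenic mice (2979.2 to 3671.1 in the others), 6648.9 among wild-type high-fat mice (5181.1 to 5639.0) and 3717.8 on the normal diet (2030.8 and 2317.4). The probe set shared by Hsd3b6, Hsd3b3 and Hsd3b2 had the same mice on top, at 3039.7, 4776.2 and 2738.9. The labels do not say whether mice with the same number shared a litter, cage or day, and this was not tested. Hsd3b3 and the bile acid enzyme Hsd3b7 had r = 0.04 over the 11 arrays and -0.71 after group means were taken out. This pair is given as a description and was named after its values were seen.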
